A study of Mus musculus with 9 samples.

Results

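The 10 genes described here are 7 inhibitors of cytokine signalling, Socs1 to Socs6 and Cish, together with the transcription factor gene Stat3 and the receptor genes Il6st and Lifr. They are 10 of the 27179 genes in the count table and were found by symbol. They were chosen by symbol from the series' genes with their counts in these 9 libraries, and the differences in those counts between populations, already known. For that reason their differences between populations are given as a description. Calls from the fit over all genes are listed for them beside the background share, and they are no independent evidence of a difference. RNA was sequenced in bulk from 3 luminal populations of the adult mouse mammary gland, sorted by flow cytometry as lineage-negative cells, with 3 libraries each. ML libraries came from cells without surface CD14, which the sample labels call positive for the PR-cre/YFP reporter. HR-positive LP libraries came from CD14+ cells positive for that reporter, and HR-negative LP libraries from CD14+ cells negative for it. All 3 populations thus come from glands with the PR-cre/YFP alleles, and no other agent or genotype is named. The series' design text calls the ML cells reporter negative, against the sample labels, which were followed. The strain, the age beyond adult, the number of animals and the abbreviations LP and ML are not explained in the labels. Nothing in them says whether replicates came from separate animals, so p-values measure only the spread between these libraries.

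Cytokines of the interleukin 6 family, among them LIF, bind receptors that share the signalling chain gp130, encoded by Il6st. LIF first binds the LIF receptor, encoded by Lifr, and the receptor pair activates JAK kinases, which phosphorylate STAT3. STAT3 then enters the nucleus and switches on target genes, one of which is Socs3. The SOCS3 protein binds gp130 and JAK and shuts the signal down, whereas CIS, encoded by Cish, and SOCS2 are best known as inhibitors of STAT5 signalling downstream of prolactin and growth hormone receptors. In the mammary gland, LIF and STAT3 are known for the cell death and remodelling that follow weaning, and prolactin and STAT5 for milk production.

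STAT dimers bind palindromes of the form TTCNNNGAA, and promoter sequences from RefSeq (GRCm38.p6) were searched for that form and for the same form with 4 bases in place of 3 between TTC and GAA. Both forms read the same on either strand. Windows ran from 250 bases before to 50 bases after a start annotated for a gene. Not every such start is the outer end of the gene: those of Socs3 and Lifr lie well inside the gene spans given below. In all, 8 windows covered 7 of the 10 genes, and Socs2, Socs5 and Socs6 had none. TTCNNNGAA was present in 2 of the 8 windows, those of Socs3 and Cish, and in 8.30% of all 32851 windows of the same length. The window of Cish held it 2 times, and 0.457% of all windows held it 2 or more times. The form with 4 bases was in 0 of the 8 windows and in 6.95% of all. The stretches with the matches are shown because Socs3 and Cish are the inhibitors that differed most in opposite directions between ML and HR-negative LP. The first is the 250 bases before a RefSeq start of Socs3 (chr11:117969367-117969616, minus strand). The second is the 30 bases around the start of Cish, from 5 bases before it (chr9:107296654-107296683, plus strand). Both are written 5′ to 3′ with the matches in capitals.
Socs3: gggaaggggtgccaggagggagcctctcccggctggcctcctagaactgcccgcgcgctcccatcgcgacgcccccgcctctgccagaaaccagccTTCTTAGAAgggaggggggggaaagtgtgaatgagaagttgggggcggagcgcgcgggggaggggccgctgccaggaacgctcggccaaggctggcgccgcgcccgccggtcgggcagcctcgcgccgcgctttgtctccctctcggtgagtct
Cish: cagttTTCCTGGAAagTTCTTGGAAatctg
The match in the Socs3 window lay 154 to 146 bases upstream of the start. Those in the Cish window covered bases 1 to 9 and 12 to 20 counted from the start. A match is a run of letters and was not tested for binding.

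Depth ranged from 27219103 to 108119756 counts per library, with 15239 to 17735 genes detected. Populations separated along a first principal component with 61.4% of the variance. On the second, with 10.1%, HR-negative LP replicate 3 stood apart at 91.6, against -15.8 and -39.5 for the other HR-negative LP libraries. Cd14, whose protein was used in the sort, averaged 24.7 CPM (a gene's counts over the TMM-scaled library total) in ML, 324 in HR-positive LP and 1114 in HR-negative LP. Pgr, the progesterone receptor gene, averaged 435 CPM in ML, 279 in HR-positive LP and 9.42 in HR-negative LP. The ML and HR-positive LP libraries overlapped in Pgr, and all were above the HR-negative LP libraries. The summed level of 8 luminal markers was between 13965 and 18771 CPM in all 9 libraries, against at most 97.3 CPM for 10 basal markers and 13.8 CPM for 10 immune markers. All 10 genes passed the filter on low counts, among 15910 genes tested.

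Lifr, the receptor chain for LIF (NCBI gene 16880, chr15:7090610-7197489 on GRCm38.p6), was far higher in both reporter-positive populations than in HR-negative LP. Its level was 302, 451 and 301 CPM in the ML libraries. It was 200, 293 and 213 CPM in HR-positive LP and 37.1, 56.2 and 40.1 CPM in HR-negative LP. Every ML library was above every HR-positive LP library, and every HR-positive LP library was above every HR-negative LP library. The mean levels were 352 ± 86.2 CPM in ML, 235 ± 50.0 in HR-positive LP and 44.5 ± 10.3 in HR-negative LP (SD, n = 3 each). The fitted log2 fold change was 2.98 (SE 0.24) for ML over HR-negative LP and 2.40 (SE 0.23) for HR-positive LP over HR-negative LP. For ML over HR-positive LP it was 0.58 (SE 0.22). In bulk RNA, fewer cells that express a gene and less of its RNA per cell cannot be told apart.

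Il6st, which encodes gp130 (NCBI gene 16195, chr13:112464070-112506860), varied less. It had 286, 362 and 439 CPM in ML, 274, 289 and 375 CPM in HR-positive LP, and 140, 266 and 270 CPM in HR-negative LP. ML and HR-positive LP overlapped. The lowest library of each stood above the highest HR-negative LP library, in HR-positive LP only by the step between 274 and 270 CPM. The log2 fold change was 0.68 (SE 0.25) for ML over HR-negative LP, 0.47 (SE 0.25) for HR-positive LP over HR-negative LP and 0.21 (SE 0.25) for ML over HR-positive LP. HR-negative LP replicate 1, at 140 CPM, set much of the distance: without it the log2 fold change of ML over HR-negative LP was 0.43.

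Levels of Lifr and Il6st were compared per length, as TPM (counts divided by gene length and scaled to a fixed library total). Lifr stood at 86.5 TPM in ML, 55.9 in HR-positive LP and 9.65 in HR-negative LP, where Il6st stood at 169, 141 and 93.3 TPM in the same order. The ratio of Lifr to Il6st TPM was 0.526 ± 0.150 in ML, 0.406 ± 0.119 in HR-positive LP and 0.110 ± 0.0309 in HR-negative LP (SD, n = 3 each). The ratio in each HR-negative LP library, at 0.0784 to 0.140, was below that in every other library, and ML and HR-positive LP overlapped. These ratios depend on the gene lengths used. With the longest annotated transcript as length they averaged 0.896 in ML, 0.692 in HR-positive LP and 0.187 in HR-negative LP, and ML replicate 2 then stood above 1, at 1.12. The HR-negative LP libraries, at 0.133 to 0.239, were again below all others.

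**Figure D1:**
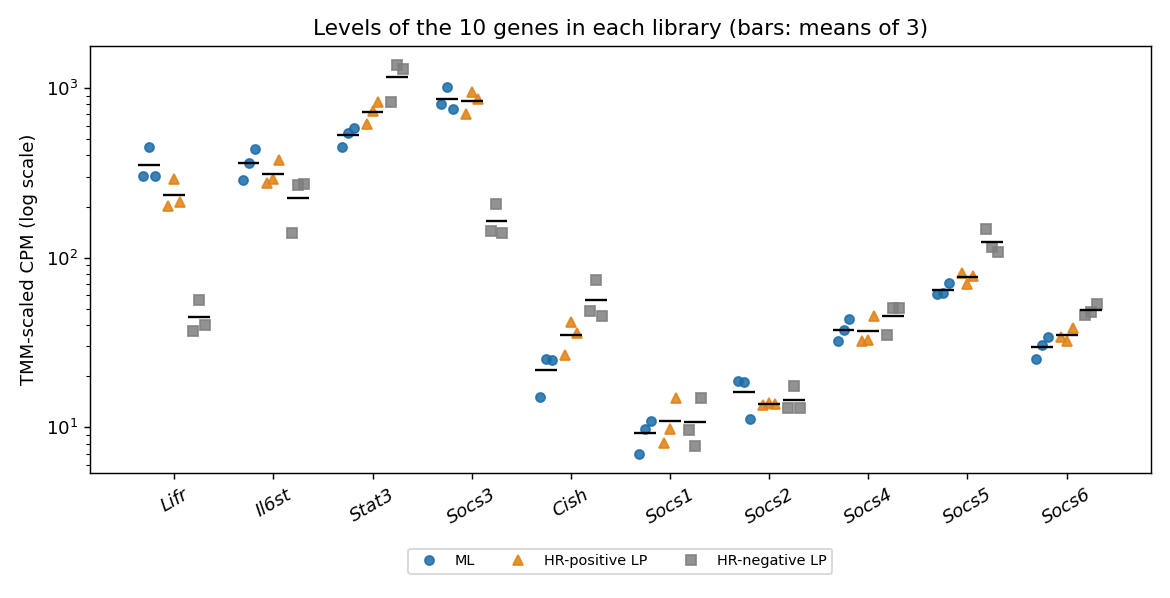
Level of each of the 10 genes in every library, as TMM-scaled CPM on a log axis, with ML, HR-positive LP and HR-negative LP from left to right within a gene and a bar at each mean of 3 libraries. Lifr and Socs3 stand far lower in HR-negative LP, Stat3, Cish, Socs5 and Socs6 stand highest there, and Socs1, Socs2 and Socs4 overlap in all 3 populations.

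Stat3 (NCBI gene 20848, chr11:100886806-100939594) ran in the opposite order to Lifr. It had 449, 543 and 582 CPM in ML, 609, 729 and 829 CPM in HR-positive LP, and 822, 1358 and 1290 CPM in HR-negative LP. ML lay below both other populations with no overlap, and HR-positive LP overlapped HR-negative LP through HR-negative LP replicate 1. The log2 fold change was -1.14 (SE 0.21) for ML over HR-negative LP, -0.68 (SE 0.20) for HR-positive LP over HR-negative LP and -0.46 (SE 0.20) for ML over HR-positive LP. Exons of Stat3 share 72 bases, 0.756% of its exon length in GENCODE M21, with the neighbouring gene Stat5a on the other strand. The library kit does not mark strand, so reads there cannot be assigned to either gene.

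A list of 18 dissociation and immediate early genes, known to respond to tissue handling and to many other stimuli, moved in the same order as Stat3. Its summed level was 21811 to 30340 CPM in ML, 37206 to 43692 CPM in HR-positive LP and 46012 to 71768 CPM in HR-negative LP, with 0 of the 18 genes at 0. Relative to HR-negative LP, 0 of the 18 were higher and 13 lower in ML, and in HR-positive LP 0 were higher and 12 lower. Over all tested genes 23.3% were called higher and 21.3% lower in ML, and 17.2% and 12.8% in HR-positive LP. Socs3 and Lifr were lowest in HR-negative LP. The part of this list's response in the Stat3, Cish, Socs5, Socs3 and Lifr differences was not tested.

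Socs3 (NCBI gene 12702, chr11:117966079-117970336), the inhibitor that acts on gp130, was the member with the highest TPM in both reporter-positive populations. It had 807, 1018 and 751 CPM in ML, 699, 947 and 858 CPM in HR-positive LP, and 144, 206 and 140 CPM in HR-negative LP. ML and HR-positive LP overlapped, and the HR-negative LP libraries were all far below. The log2 fold change was 2.39 (SE 0.20) for ML over HR-negative LP, 2.35 (SE 0.20) for HR-positive LP over HR-negative LP and 0.04 (SE 0.19) for ML over HR-positive LP. No exon of Socs3 overlaps another gene in GENCODE M21, and 0% of its windows of 50 bases occur in another gene's transcripts.

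The summed level of the endothelial markers was lowest in HR-negative LP, as were Socs3 and Lifr. The 10 markers summed to 191 to 234 CPM in ML, 141 to 182 CPM in HR-positive LP and 11.8 to 24.3 CPM in HR-negative LP. Eng and Vwf carried this, and they were the 2 of 10 called higher in both comparisons with HR-negative LP: Eng averaged 146, 112 and 5.32 CPM and Vwf 66.2, 46.4 and 2.92 CPM in ML, HR-positive LP and HR-negative LP. Over all tested genes 23.3% were called higher in ML and 17.2% in HR-positive LP. The other 8 markers were not called in either comparison. Among them Pecam1 averaged 3.37, 2.50 and 3.39 CPM in the same order, and Cdh5, Kdr and Tie1 were below 1 CPM on average in each population. The median log2 fold change of the endothelial list was -0.68 for HR-positive LP and 0.08 for ML, each over HR-negative LP. The 10 fibroblast markers summed to 204 to 361 CPM in ML, 169 to 308 CPM in HR-positive LP and 77.1 to 134 CPM in HR-negative LP. Of these, Dcn and Col6a3 were higher in HR-positive LP, and 6 were lower there, relative to HR-negative LP. In that comparison 17.2% of all tested genes were called higher and 12.8% lower. The part of any endothelial cells or fibroblasts in the Socs3 and Lifr differences was not tested.

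Socs3 made up most of the summed level of the 7 inhibitors in ML and HR-positive LP, and less of it in HR-negative LP. The 7 inhibitors, without Socs7, together came to 966 ± 106 TPM in ML, 936 ± 85.2 in HR-positive LP and 368 ± 44.2 in HR-negative LP (SD, n = 3 each). Socs3 made up 82.7% ± 2.86 of that sum in ML, 80.1% ± 2.09 in HR-positive LP and 36.1% ± 3.78 in HR-negative LP. In HR-negative LP the remainder was spread over Socs5 with 17.3%, Cish with 15.6%, Socs4 with 12.8% and Socs6 with 9.41%. Shares depend on the gene lengths used: with the longest annotated transcript as the length, the Socs3 share was 90.2% in ML, 88.5% in HR-positive LP and 51.1% in HR-negative LP.

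**Figure D2:**
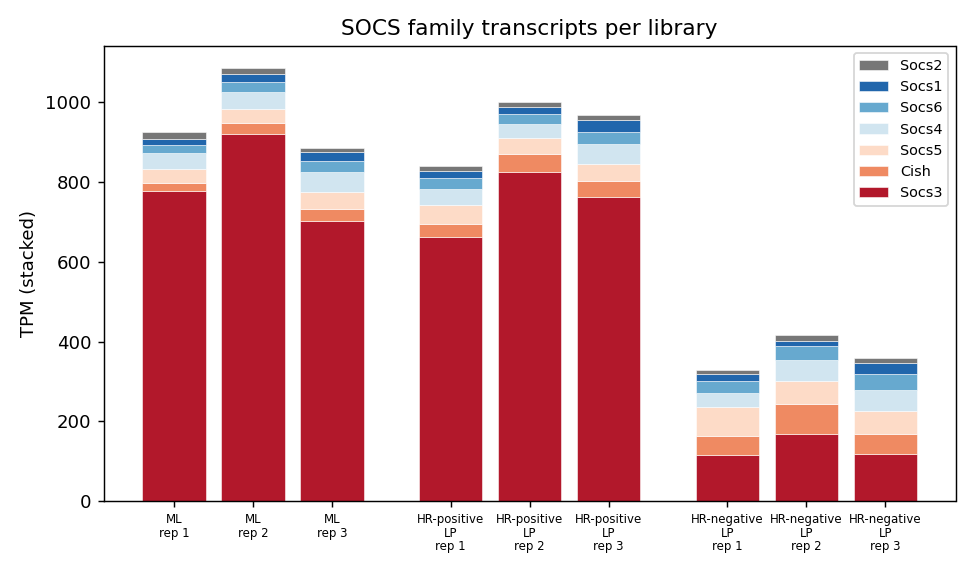
TPM of the 7 SOCS family genes stacked for each library, 3 ML, 3 HR-positive LP and 3 HR-negative LP libraries from left to right. Socs3, at the base of each bar, makes up most of the ML and HR-positive LP bars and about as much as several other members together in the HR-negative LP bars.

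Cish (NCBI gene 12700, chr9:107296659-107302784), which encodes CIS, ran opposite to Socs3. It had 15.1, 25.4 and 24.9 CPM in ML, 26.6, 41.7 and 36.1 CPM in HR-positive LP, and 48.8, 73.6 and 45.6 CPM in HR-negative LP. The 3 populations did not overlap. The log2 fold change was -1.36 (SE 0.26) for ML over HR-negative LP, -0.69 (SE 0.25) for HR-positive LP over HR-negative LP and -0.67 (SE 0.26) for ML over HR-positive LP. In GENCODE M21, 7.46% of the exon bases of Cish overlap Gm17041 and 4.07% overlap Gm17040, both on the other strand, so part of its reads cannot be assigned.

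Socs5, an inhibitor linked to EGF receptor and interleukin 4 signalling (NCBI gene 56468, chr17:87107278-87137647), had 60.8, 61.6 and 70.8 CPM in ML, 81.7, 70.3 and 77.8 CPM in HR-positive LP, and 147, 115 and 108 CPM in HR-negative LP. Every HR-negative LP library was above all others, while ML and HR-positive LP met between 70.3 and 70.8 CPM. The log2 fold change was -0.94 (SE 0.15) for ML over HR-negative LP, -0.69 (SE 0.15) for HR-positive LP over HR-negative LP and -0.25 (SE 0.15) for ML over HR-positive LP. Socs6, an inhibitor linked to receptor tyrosine kinases (NCBI gene 54607, chr18:88865169-88894364), had 25.2, 30.6 and 33.9 CPM in ML, 34.1, 32.4 and 38.4 CPM in HR-positive LP, and 45.9, 48.0 and 53.6 CPM in HR-negative LP. It showed the same arrangement over a smaller distance, with log2 fold changes of -0.72 (SE 0.15) for ML over HR-negative LP, -0.49 (SE 0.15) for HR-positive LP over HR-negative LP and -0.23 (SE 0.15) for ML over HR-positive LP. Of the 50-base windows in Socs6 transcripts, 6.14% also occur in Gm13188 or Gm9449, so its counts are less certain.

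The remaining inhibitors overlapped between populations in each comparison. Socs4 (NCBI gene 67296, chr14:47276920-47296102) averaged 37.6 ± 5.46 CPM in ML, 36.7 ± 7.65 in HR-positive LP and 45.2 ± 8.88 in HR-negative LP (SD, n = 3 each). Socs2, known as the inhibitor of growth hormone signalling (NCBI gene 216233, chr10:95383903-95417321), averaged 16.1 ± 4.28 CPM in ML, 13.7 ± 0.196 in HR-positive LP and 14.5 ± 2.59 in HR-negative LP, and 4.53% of its 50-base windows occur in other genes too. Socs1, the inhibitor of interferon signalling (NCBI gene 12703, chr16:10783808-10785536), averaged 9.22 ± 2.01 CPM in ML, 10.9 ± 3.55 in HR-positive LP and 10.8 ± 3.74 in HR-negative LP. Their fitted log2 fold changes lay between -0.30 and 0.23 over the 3 comparisons, with SEs of 0.20 to 0.32. These SEs leave room for differences of the size seen for Socs6.

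The order of the leading genes by TPM was alike in ML and HR-positive LP and differed in HR-negative LP. In both reporter-positive populations the order ran Socs3, Stat3, Il6st, Lifr and then the other inhibitors. In HR-negative LP it began with Stat3 and Socs3. Lifr, at 9.65 ± 2.23 TPM there, stood among the lowest, within the spread of Socs2 at 12.0 ± 2.11 TPM (SD, n = 3). The order of the lower members depended on the gene lengths used: with the longest annotated transcript as length, Lifr was at 10.3 TPM in HR-negative LP, above Socs1 at 8.36 and Socs2 at 7.65 TPM, and Socs5 and Il6st changed places. The Socs3 level of 800 TPM in ML was above that of 99.2% of tested genes, and the 134 TPM in HR-negative LP above that of 92.6%. The ratio of Socs3 to Stat3 TPM was 2.72 ± 0.518 in ML, 1.91 ± 0.218 in HR-positive LP and 0.239 ± 0.0560 in HR-negative LP (SD, n = 3 each). The highest HR-negative LP library had a ratio of 0.288 and the lowest of the others 1.70, so the inhibitor's TPM exceeded that of the transcription factor in all 6 reporter-positive libraries and in 0 of 3 HR-negative LP libraries.

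A gene was called where the adjusted p of edgeR's quasi-likelihood test over all tested genes was below 0.05. In ML against HR-negative LP, 3 of the 10 genes were called higher (Lifr, Socs3, Il6st) and 4 lower (Cish, Stat3, Socs5, Socs6), where 23.3% of all tested genes were called higher and 21.3% lower, 44.6% in all. Between HR-positive LP and HR-negative LP, 2 were called higher (Lifr, Socs3) and 3 lower (Socs5, Stat3, Socs6), where 17.2% of all tested genes were called higher and 12.8% lower, 29.9% in all. These comparisons share the HR-negative LP libraries, and the genes were picked with such values known, so the counts carry no weight against the background. Levels did not overlap between groups for 7 of 10 genes in ML against HR-negative LP and for 6 of 10 between HR-positive LP and HR-negative LP, where 53.1% and 43.9% of tested genes did not. Without HR-positive LP replicate 1, HR-positive LP replicate 2 or HR-negative LP replicate 2, 3 of the 10 were called between HR-positive LP and HR-negative LP in place of 5. The call of Il6st in ML against HR-negative LP held in 9 of 18 alternatives.

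In ML against HR-positive LP, edgeR called 0 of the 10 genes, where 6.79% of all tested genes were called, 0.0943% higher and 6.70% lower. At an unadjusted p below 0.05 it listed 3 of the 10, and DESeq2 and limma voom also called 0. Cish and Stat3 were lower and Lifr higher in ML with no overlap, 3 of 10 genes where 27.0% of tested genes did not overlap. With the replicate number as a block, which the libraries of these populations follow, Lifr was called higher and Cish and Stat3 lower, 3 genes in all. With the block and only the ML and HR-positive LP libraries in the fit, Il6st was also called higher and Socs5 lower, 5 genes in all.

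**Figure D3:**
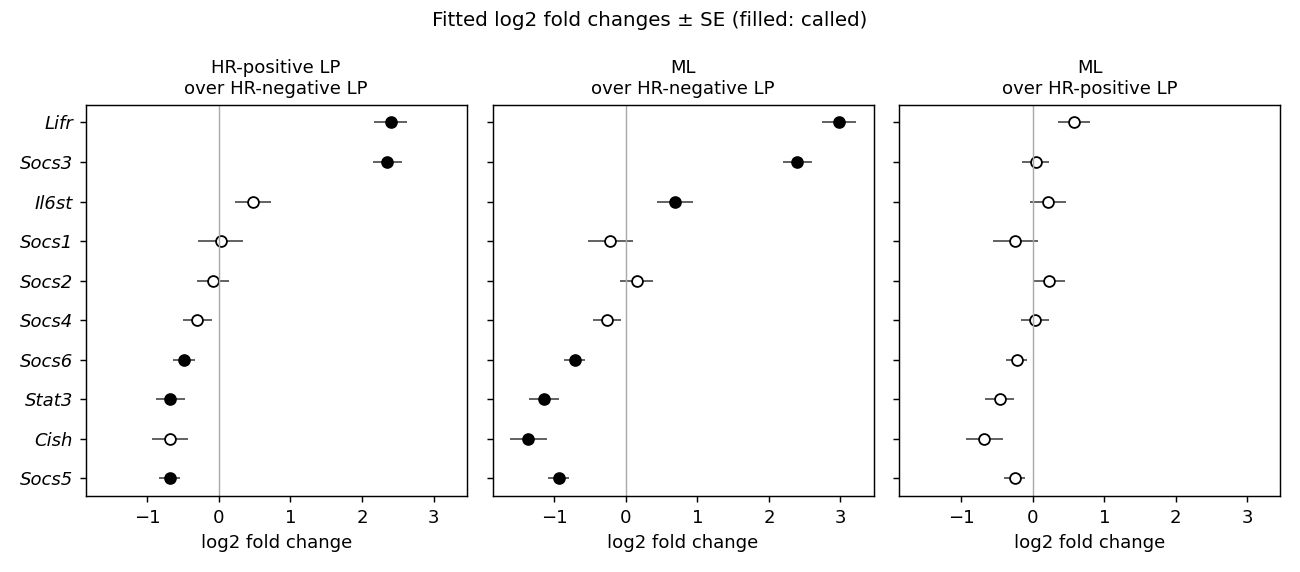
Fitted log2 fold changes with their SE for the 10 genes in HR-positive LP over HR-negative LP, ML over HR-negative LP and ML over HR-positive LP, filled where called without a replicate block. Lifr and Socs3 lie above 2 in both comparisons with HR-negative LP, and no point is filled in ML over HR-positive LP.

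Genes around these members in the pathway were read from 9 lists holding 104 genes, of which 90 were tested. The lists too were chosen with earlier results of these data known, so their p-values are no independent evidence. Relative to HR-negative LP, 27 were higher and 27 lower in ML, and in HR-positive LP 25 were higher and 20 lower. Shares called over all tested genes were 23.3% higher and 21.3% lower in ML, and 17.2% and 12.8% in HR-positive LP. Between ML and HR-positive LP, 0 were higher and 14 lower in ML, where 0.0943% of all tested genes were called higher and 6.70% lower. With the replicate block and only the ML and HR-positive LP libraries in the fit, 17 were higher and 23 lower in ML, 40 in all. Of all genes called in that fit, 39.5% were higher in ML. Without the block, the median log2 fold changes of the tested pathway genes were -0.04, 0.04 and -0.01 in that order of comparisons. They stood beside 0.03, 0.01 and 0.01 over all tested genes.

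Among the ligands, Lif differed between all 3 populations, and its order was the reverse of that of its receptor gene. Lif had 18.7, 18.3 and 35.6 CPM in ML, 153, 279 and 247 CPM in HR-positive LP, and 490, 1013 and 739 CPM in HR-negative LP, with no overlap. Its log2 fold change was -4.95 (SE 0.39, adjusted p = 2.0e-06) for ML over HR-negative LP, -1.72 (SE 0.34, adjusted p = 0.0031) for HR-positive LP over HR-negative LP and -3.22 (SE 0.36, adjusted p = 0.00011) for ML over HR-positive LP in edgeR's test. Clcf1, a ligand of the CNTF receptor, averaged 2.30 ± 1.47 CPM in ML and 20.3 ± 12.8 in HR-negative LP (SD, n = 3 each), a log2 fold change of -3.13 (SE 0.57, edgeR adjusted p = 0.0011). Il27 was at 0 in all HR-negative LP libraries. It averaged 1.12 CPM in ML, at least 65.6-fold higher, and 0.247 CPM in HR-positive LP, at least 14.4-fold higher, against a floor of 3 counts over the HR-negative LP group. Of the 10 ligand genes 8 were tested, and those not called included Il6, at under 1 CPM on average in each population. Osm and Il31 had no count in any library.

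Of the other receptor genes of the family, 5 of 7 were tested. Cntfr, which encodes the ligand-binding chain for CNTF, had 63.2, 67.2 and 50.5 CPM in ML, 46.8, 54.3 and 48.7 CPM in HR-positive LP, and 0.787, 2.76 and 1.22 CPM in HR-negative LP. It was thus near 0 in HR-negative LP and overlapped between the reporter-positive populations. Its log2 fold change was 5.18 (SE 0.39, adjusted p = 1.5e-06) for ML over HR-negative LP and 4.90 (SE 0.38, adjusted p = 9.0e-06) for HR-positive LP over HR-negative LP in edgeR's test. Il11ra1, the interleukin 11 receptor gene, went the other way, with 22.8 ± 1.43 CPM in ML, 26.8 ± 4.08 in HR-positive LP and 41.5 ± 11.7 in HR-negative LP (SD, n = 3 each). It was called lower in ML than in HR-negative LP, with an edgeR adjusted p of 0.0064. Its call between HR-positive LP and HR-negative LP was lost in 10 of 18 alternatives. Osmr, which pairs with gp130 for oncostatin M, averaged 252, 286 and 450 CPM and Il6ra 53.9, 44.5 and 30.3 CPM in ML, HR-positive LP and HR-negative LP, and neither was called without the replicate block.

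**Figure D4:**
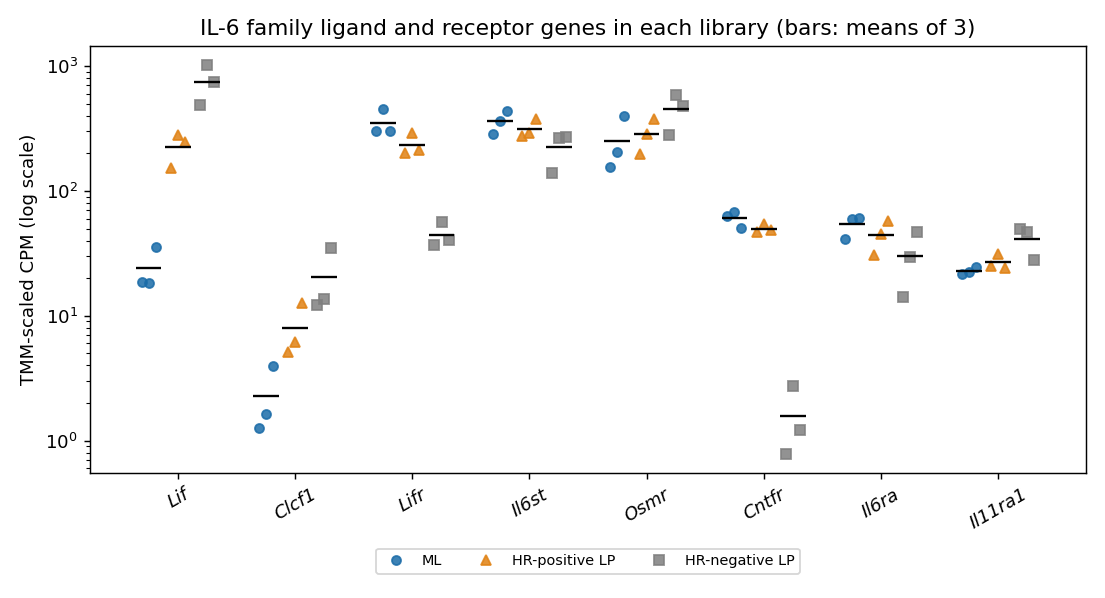
Level of the ligand genes Lif and Clcf1 and of 6 receptor genes of the interleukin 6 family in every library, as TMM-scaled CPM on a log axis, with ML, HR-positive LP and HR-negative LP from left to right within a gene and a bar at each mean of 3 libraries. Lif and Clcf1 stand higher toward the right, while Lifr and Cntfr stand lowest in HR-negative LP and the Il6st points lie close together.

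Receptors of other cytokines that signal through JAK and STAT included Prlr, the prolactin receptor gene. Its level averaged 6314 ± 1247 CPM in ML, 4131 ± 494 in HR-positive LP and 198 ± 95.1 in HR-negative LP (SD, n = 3 each). It was higher in ML with an edgeR adjusted p of 8.0e-07, and higher in HR-positive LP by a log2 fold change of 4.38 (SE 0.33, edgeR adjusted p = 7.8e-06), both relative to HR-negative LP. Of 17 receptor genes tested, 8 were higher and 3 lower in ML, and in HR-positive LP 6 were higher and 3 lower, again relative to HR-negative LP. The shares over all tested genes were 23.3% and 21.3% in ML, and 17.2% and 12.8% in HR-positive LP. Il13ra1, a chain of receptors for interleukins 4 and 13, averaged 249 CPM in ML, 199 in HR-positive LP and 84.9 in HR-negative LP. Ifnar2, an interferon receptor chain, averaged 28.2, 37.7 and 64.4 CPM in the same order and was lower in both comparisons with HR-negative LP.

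Of the kinases that phosphorylate STAT proteins, Jak2 alone among 4 was called. It had 176, 261 and 251 CPM in ML, 164, 200 and 188 CPM in HR-positive LP, and 81.9, 97.8 and 57.6 CPM in HR-negative LP. Against HR-negative LP, Jak2 was higher in ML by a log2 fold change of 1.53 (SE 0.21, edgeR adjusted p = 0.00014), and higher in HR-positive LP by 1.22 (SE 0.21, edgeR adjusted p = 0.0015). Jak1, the kinase most tied to gp130, averaged 280 CPM in ML, 276 in HR-positive LP and 262 in HR-negative LP and was not called.

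Of the other STAT genes, some ran opposite to Stat3 and some in its order. Stat5a averaged 283 ± 96.1 CPM in ML, 234 ± 69.4 in HR-positive LP and 101 ± 11.3 in HR-negative LP, and Stat2, which carries type I interferon signals, averaged 112 ± 11.1, 79.8 ± 3.85 and 31.3 ± 5.94 CPM in the same order (SD, n = 3 each). Both were called higher in ML and in HR-positive LP, each against HR-negative LP. Stat6, the transducer of interleukin 4, had the order of Stat3, with 132 ± 7.82 CPM in HR-positive LP. It was lower in ML, at 108 ± 16.3 CPM against 179 ± 27.9 in HR-negative LP, with an edgeR adjusted p of 0.0029. Stat4 was at 0 in all ML libraries and at about 1 CPM or less in the other populations on average. Stat5b averaged 126 CPM in ML, 146 in HR-positive LP and 167 in HR-negative LP, also in the order of Stat3, and was not called without the replicate block.

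Among 11 further inhibitors of the pathway, 3 were higher and 4 lower in ML, and in HR-positive LP 3 were higher and 3 lower, each relative to HR-negative LP. The shares over all tested genes were 23.3% and 21.3% in ML, and 17.2% and 12.8% in HR-positive LP. Socs7, the family member that was not among the 10 genes, averaged 31.0 ± 2.03 CPM in ML, 47.1 ± 4.99 in HR-positive LP and 84.4 ± 15.8 in HR-negative LP (SD, n = 3 each). It was lower in both, with a log2 fold change of -1.45 (SE 0.16, edgeR adjusted p = 3.2e-05) for ML over HR-negative LP and of -0.84 (SE 0.16, edgeR adjusted p = 0.0027) for HR-positive LP over HR-negative LP. Its call in ML against HR-positive LP was lost in 10 of 18 alternatives. Ptpn1, a phosphatase that acts on JAK2, averaged 359 ± 47.6 CPM in ML, 286 ± 52.0 in HR-positive LP and 99.5 ± 31.0 in HR-negative LP, and was higher in both comparisons with HR-negative LP. Pias3, an inhibitor of STAT3, averaged 30.3 ± 1.51, 24.5 ± 1.56 and 9.38 ± 3.46 CPM and was also higher in both.

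SOCS proteins recruit a ubiquitin ligase through elongins B and C and cullin 5. Of its 5 genes listed, Elob averaged 73.1 ± 7.04 CPM in ML, 69.8 ± 15.9 in HR-positive LP and 43.4 ± 9.51 in HR-negative LP (SD, n = 3 each). Against HR-negative LP, Elob was higher in ML with an edgeR adjusted p of 0.0096, and higher in HR-positive LP with an edgeR adjusted p of 0.023, a call lost in 4 of 18 alternatives. Ube2f, which loads NEDD8 onto cullin 5, was lower in ML relative to HR-negative LP, a call lost in 10 of 18 alternatives. Eloc, Cul5 and Rnf7 were not called.

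Genes known as targets of STAT3 did not move in a single direction. Of 26 tested, 8 were higher and 11 lower in ML, and in HR-positive LP 8 were higher and 10 lower, each relative to HR-negative LP. The shares over all tested genes were 23.3% and 21.3% in ML, and 17.2% and 12.8% in HR-positive LP. Counts for the list between the reporter-positive populations follow. In ML against HR-positive LP 0 were higher and 9 lower without the replicate block. With it the counts were 1 and 11, and with the block and only these libraries in the fit 4 and 11. Most calls between these populations were lower over all genes too. Without the block 0.0943% of all tested genes were called higher in ML and 6.70% lower. With the block 71 genes were higher and 1253 lower. In the fit with the block and only these libraries, 39.5% of all genes called were higher. The list's median log2 fold change was -0.33 for HR-positive LP over HR-negative LP, with 13 genes above 0 and 13 below. It was -0.23 for ML over HR-negative LP and -0.02 for ML over HR-positive LP. Over all tested genes these medians were 0.01, 0.03 and 0.01. The genes lower in both comparisons with HR-negative LP included Cebpb and Cebpd, transcription factors of the C/EBP family that act in the acute-phase response and in mammary remodelling.

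Cebpd had 118, 122 and 122 CPM in ML, 521, 705 and 634 CPM in HR-positive LP, and 1917, 2009 and 1549 CPM in HR-negative LP. Cebpb averaged 85.3 ± 19.6 CPM in ML, 613 ± 122 in HR-positive LP and 1940 ± 107 in HR-negative LP (SD, n = 3 each). The log2 fold change of Cebpd was -3.92 (SE 0.17, edgeR adjusted p = 4.5e-08) for ML over HR-negative LP and -1.56 (SE 0.16, edgeR adjusted p = 4.3e-05) for HR-positive LP over HR-negative LP. Igfbp5, which binds insulin-like growth factors and is a STAT3 target of involution, averaged 50.9 ± 24.8 CPM in ML, 3512 ± 283 in HR-positive LP and 10949 ± 2835 in HR-negative LP. Its log2 fold change was -7.75 (SE 0.46, edgeR adjusted p = 2.7e-07) for ML over HR-negative LP and -6.11 (SE 0.42, edgeR adjusted p = 3.6e-06) for ML over HR-positive LP. Lbp, the gene of an acute-phase carrier of bacterial lipopolysaccharide, averaged 0.185 CPM in ML, 7.02 in HR-positive LP and 28.2 in HR-negative LP. Junb is on this list and on the dissociation list.

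Genes of acute-phase proteins were found on both sides. Relative to HR-negative LP, Lbp was called lower in both reporter-positive populations, as were Lcn2, which encodes a protein that binds bacterial iron carriers, and Lrg1, a secreted glycoprotein gene. Lcn2 averaged 16.9 CPM in ML, 1092 in HR-positive LP and 3969 in HR-negative LP, and Lrg1 averaged 37.0, 141 and 444 CPM in the same order. For ML over HR-negative LP the log2 fold change was -7.88 (SE 0.76) for Lcn2 and -3.59 (SE 0.25) for Lrg1. Fgg and Hp were higher in both comparisons with HR-negative LP. Fgg, the fibrinogen gamma chain gene, had 974, 916 and 1823 CPM in ML, 661, 692 and 1498 CPM in HR-positive LP, and 8.44, 24.7 and 13.7 CPM in HR-negative LP. Hp, the haptoglobin gene, averaged 191 ± 46.4 CPM in ML, 183 ± 56.2 in HR-positive LP and 13.3 ± 4.54 in HR-negative LP (SD, n = 3 each). Its log2 fold change was 3.84 (SE 0.31, edgeR adjusted p = 2.45e-06) for ML over HR-negative LP and 3.78 (SE 0.31, edgeR adjusted p = 1.1e-05) for HR-positive LP over HR-negative LP. Fgg and Hp overlapped between ML and HR-positive LP, as Socs3 did.

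**Figure D5:**
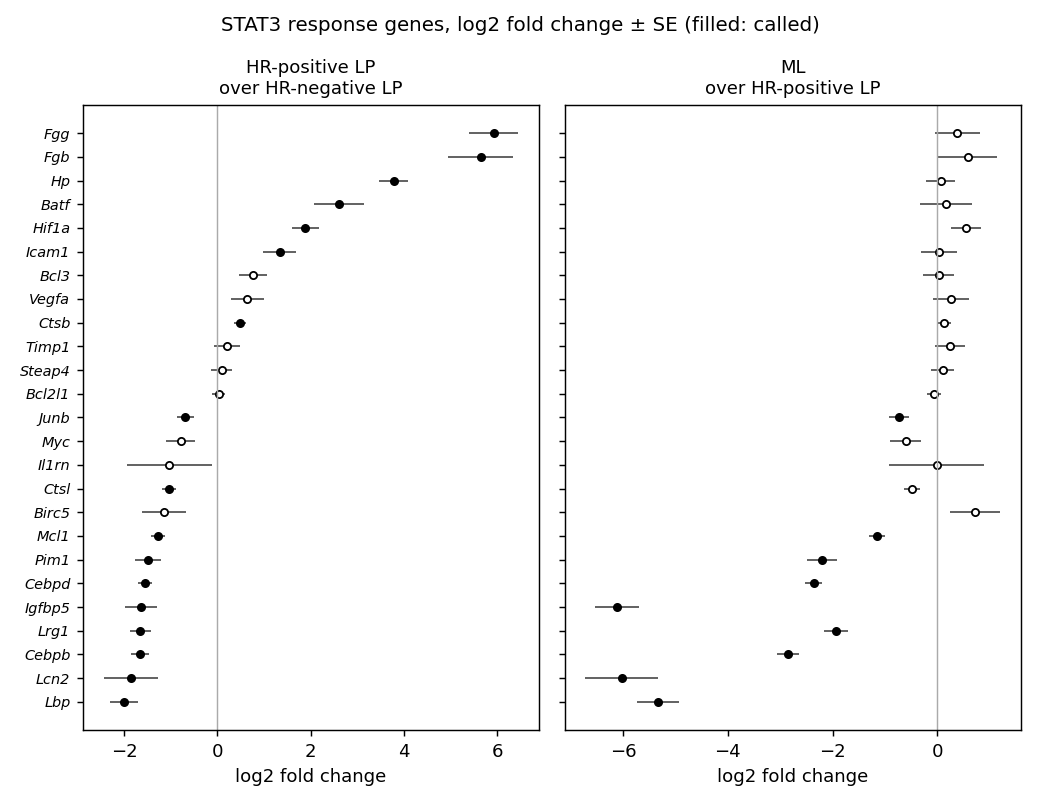
Fitted log2 fold changes with their SE for 25 STAT3 response genes in HR-positive LP over HR-negative LP and ML over HR-positive LP, filled where called without a replicate block. Fga was left out because it is at 0 in HR-negative LP. In the left panel filled points lie on both sides of 0, and in the right panel all filled points lie below 0. Over all tested genes in the comparison on the right, 15 were called higher and 1066 lower.

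Of 8 tested genes known to respond to STAT5, Wnt4 and Bcl6 were higher and Elf5 and Id2 lower in both comparisons with HR-negative LP. Csn1s1, a milk protein gene, was also called lower in ML, at 0 there against a mean of 2.48 CPM in HR-negative LP. That is at least 98.7-fold, against a floor of 3 counts over the ML group. The shares over all tested genes were 23.3% higher and 21.3% lower in ML, and 17.2% and 12.8% in HR-positive LP. Wnt4, a signal that acts downstream of progesterone in the gland, averaged 262 ± 42.0 CPM in ML, 206 ± 43.2 in HR-positive LP and 8.24 ± 6.67 in HR-negative LP (SD, n = 3 each). Elf5, a transcription factor of alveolar cells, averaged 36.0 ± 17.5, 151 ± 8.67 and 434 ± 111 CPM in the same order. Its log2 fold change was -3.59 (SE 0.36, edgeR adjusted p = 1.1e-05) for ML over HR-negative LP and -1.53 (SE 0.33, edgeR adjusted p = 0.0052) for HR-positive LP over HR-negative LP. By fitted log2 fold change, Cish, a known STAT5 target, ran in the order of Elf5, Id2, Csn1s1 and Stat5b. Prlr, Jak2, Stat5a, Wnt4 and Bcl6 ran in the reverse order. The part of STAT5 in these differences was not tested.

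The genes most like Socs3, Socs2 and Cish in their pattern over the 9 libraries were found among 9152 genes by the root-mean-square difference of mean-centred log2 CPM. For Socs3 the nearest were Rgs3, Tmprss2, Cavin1, Dap and Cmip, at differences of 0.169 to 0.193, where the median candidate was at 1.14. Tmprss2, a membrane serine protease gene, averaged 1018 CPM in ML, 758 in HR-positive LP and 175 in HR-negative LP. For Cish they were Zbtb10, Dnajc21, Sfn, Sdc4 and Tex30, at 0.189 to 0.211 with a median candidate at 0.708. Sdc4, which encodes a cell-surface proteoglycan, averaged 865 CPM in ML, 1347 in HR-positive LP and 2567 in HR-negative LP. For Socs2 they were Pik3c2b, Lrsam1, Ntmt1, Zfp91 and Dis3l, at 0.145 to 0.161 with a median candidate at 0.400.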

How the data were processed

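RNA had been extracted from sorted cells and made into libraries with a TruSeq kit that does not mark strand, per the labels' protocols. The deposited values are raw counts per gene, tied to featureCounts and mm10 in the submitters' processing notes. The aligner, the annotation and the handling of multiply mapping reads are not given in the sources used here. The deposited table of the series and the file of each sample held the same counts (0 cells differed).

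Genes were kept by filterByExpr, scaled by TMM and compared with edgeR's quasi-likelihood test over all 9 libraries with no covariate, with Benjamini-Hochberg adjustment over all tested genes and a threshold of 0.05. CPM is TMM-scaled. TPM used the deposited gene lengths. An SE is the absolute log2 fold change divided by the square root of F. The tools were edgeR 4.0.16, DESeq2 1.42.0 and limma 3.58.1 under R 4.3.3, with figures from matplotlib 3.10.9 under Python 3.11.15. The procedure was tested on simulated data.

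The members and lists were chosen with earlier results of these data known. From each pathway list, up to 4 called genes with the smallest p per comparison were named. A gene named outside this rule (other markers, Il6, Osmr, Il6ra, Osm, Il31, Jak1, Stat5b, Eloc, Cul5, Rnf7, Junb, Lcn2, Lrg1, Fga, Csn1s1) was chosen after its values were seen. Nearest patterns used genes with a mean log2 CPM over 3, a prior count of 2 and the 5 smallest differences. Alternatives were DESeq2, limma voom, RLE factors, library totals alone, other filters, fits of only the groups compared, a replicate block and leaving out each library.

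The labels number the libraries 1 to 3 with no word on pairing. Deviations from the group means of same-numbered ML and HR-positive LP libraries correlated across genes at 0.183, 0.121 and 0.189, all above 0.1, so the numbers were taken to pair these libraries. Depth of 27219103 to 108119756 counts left the spread between libraries, not counting error, as the limit for genes above a few CPM. No protein sequence was used here.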

Additional observations from a re-analysis of the deposited data

How the results depend on the processing

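Over 18 alternatives per value, 0 of 12 member log2 fold changes that were called reversed, and 9 of these calls held in every alternative. Leaving out each library in turn gave 6 to 7 members called in ML against HR-negative LP (7 with all), 3 to 6 between HR-positive LP and HR-negative LP (5 with all) and 0 to 0 in ML against HR-positive LP. The same ranges were 50 to 57, 34 to 45 and 11 to 16 for pathway genes, against 54, 45 and 14, and 5633 to 7658, 3193 to 5512 and 808 to 1238 for all genes, against 7089, 4764 and 1081.

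With the replicate block, 3 members were called in ML against HR-positive LP, where 71 were higher and 1253 lower over all genes. With the block and only these populations, 5 members, 40 pathway genes and 3604 genes in all were called. Same-numbered HR-positive LP and HR-negative LP libraries correlated at 0.133, 0.0389 and 0.147, and ML and HR-negative LP libraries at 0.0526, 0.0254 and 0.0849. These were not all above 0.1, so the numbers were not taken to pair them. Each was still above the values of differently numbered libraries, which reached at most 0.0192 and 0.0183 in these comparisons. Such values cannot tell whether these libraries share more than a number. In these comparisons the block moved no count by over 1.5 times. With it, Cish and Il6st were also called between HR-positive LP and HR-negative LP.

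The longest annotated transcript as length gave Socs3 shares of 90.2%, 88.5% and 51.1% in ML, HR-positive LP and HR-negative LP. Scaling by library totals alone moved the median log2 fold change of all genes to 0.12 in HR-positive LP and to 0.19 in ML over HR-negative LP, and split the calls of HR-positive LP against HR-negative LP into 3182 higher and 1535 lower in place of 2731 and 2033. Socs6 was then no longer called there. The call of Stat3 in that comparison was lost without HR-positive LP replicate 1 or 2 or HR-negative LP replicate 2 or 3, and that of Cish was gained in 8 of 18 alternatives. The causes were not tested. With 3 libraries a group, differences of the size of an SE were not detectable.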
